A study of Mus musculus with 6 samples.

Results

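Mcoln2, Ephx1, Cd200, Ccr1 and Notch4 are 5 genes whose signal was low in splenic B cells of both mouse lines with a defective Btk, the Tec family kinase downstream of the B cell receptor. They were chosen by their measured intensities in Xid and Btk KO against CBA, so their levels against wild type are given here as a description with no test. They are 5 of the 8251 genes the array names by 1 symbol, and are read by 6 of 12488 probe sets, 1 each for Mcoln2, Ephx1, Cd200 and Ccr1 and 2 for Notch4. The study measured total RNA of whole splenic B cells from adult mice on 6 Affymetrix MG_U74Av2 arrays, 2 for each of 3 groups. The first group was wild type CBA. The second was Xid, the CBA/N strain, in which Btk carries the R28C substitution. The third, Btk KO on the CBA background, came from Btk KO/SW129 mice backcrossed to CBA over 9 generations. Xid and Btk KO each differ from CBA by strain or line as well as by Btk, and these cannot be told apart here. In each group the array numbered 2 used new mice and new RNA, and the arrays sharing a number are called a run below. The labels do not say how many animals gave each RNA, and the p-values below measure the spread between these samples.

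The 5 genes do different things in a cell. Mcoln2 encodes TRPML2, a cation channel of endosomes and lysosomes found mainly in lymphoid and myeloid cells. Ephx1 encodes microsomal epoxide hydrolase, which turns reactive epoxides into diols in the endoplasmic reticulum. Cd200 is a surface glycoprotein of B cells and other cells whose receptor, on myeloid cells, restrains their activation. Ccr1 is a CC chemokine receptor for ligands such as CCL3 and CCL5 and is best known from myeloid cells. Notch4 is the Notch receptor best known from endothelium. In B cells it is Notch2 that directs the marginal zone fate. Btk itself couples the B cell receptor to phospholipase C gamma and so to calcium, NFAT and NF-kB, and mice without working Btk have fewer mature B cells and hardly any B-1 cells.

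The start regions of all 5 genes are shown because the signals went down together in the same 4 arrays. Each sequence is the RefSeq promoter window of GRCm38.p6, of 300 bases from 250 before to 50 after the gene's start, read 5′ to 3′ on the gene's strand. Capitals mark 3 short motifs on either strand, which are GGAAA (the core bound by NFAT), GAGGAA (the core of sites for PU.1 and other ETS factors) and TGGGAA (the core bound by RBPJ, the DNA-binding partner of Notch). The 3 can share bases with each other, and no marked bases are shared here.
Mcoln2, chr3:146149924-146150223, plus strand: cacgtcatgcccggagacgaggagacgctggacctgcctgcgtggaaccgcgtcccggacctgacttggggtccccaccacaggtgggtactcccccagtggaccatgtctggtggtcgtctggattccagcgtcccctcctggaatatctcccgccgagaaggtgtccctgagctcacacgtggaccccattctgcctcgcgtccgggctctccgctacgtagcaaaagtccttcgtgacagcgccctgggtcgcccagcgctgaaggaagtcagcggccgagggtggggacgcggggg
Ephx1, chr1:181017520-181017819, minus strand: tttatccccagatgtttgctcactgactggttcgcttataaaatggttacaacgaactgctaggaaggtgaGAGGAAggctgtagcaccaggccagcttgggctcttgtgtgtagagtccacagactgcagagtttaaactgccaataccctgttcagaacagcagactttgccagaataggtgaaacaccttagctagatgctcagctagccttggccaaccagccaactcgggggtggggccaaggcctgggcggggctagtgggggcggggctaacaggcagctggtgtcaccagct
Cd200, chr16:45409004-45409303, minus strand: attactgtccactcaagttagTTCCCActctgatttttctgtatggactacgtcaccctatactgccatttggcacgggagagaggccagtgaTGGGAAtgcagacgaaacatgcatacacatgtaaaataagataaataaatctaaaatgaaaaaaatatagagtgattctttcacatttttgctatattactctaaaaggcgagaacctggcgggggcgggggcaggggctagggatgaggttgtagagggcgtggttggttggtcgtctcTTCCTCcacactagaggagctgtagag
Ccr1, chr9:123968643-123968942, minus strand: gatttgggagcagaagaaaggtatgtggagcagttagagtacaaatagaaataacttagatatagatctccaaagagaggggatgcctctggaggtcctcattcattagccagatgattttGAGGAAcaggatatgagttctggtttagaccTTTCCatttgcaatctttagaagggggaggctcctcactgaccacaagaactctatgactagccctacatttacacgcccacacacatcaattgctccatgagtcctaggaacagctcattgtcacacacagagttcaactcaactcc
Notch4, chr17:34564045-34564344, plus strand: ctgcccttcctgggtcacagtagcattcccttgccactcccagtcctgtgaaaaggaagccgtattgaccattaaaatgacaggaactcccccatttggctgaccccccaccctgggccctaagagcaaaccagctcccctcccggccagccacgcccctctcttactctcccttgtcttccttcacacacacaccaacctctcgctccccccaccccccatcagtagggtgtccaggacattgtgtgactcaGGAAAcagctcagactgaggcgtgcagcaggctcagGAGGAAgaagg
GAGGAA occurred once in the windows of Ephx1, Cd200, Ccr1 and Notch4 and not in that of Mcoln2, and 28.3% of 32851 promoter windows of this length hold it. GGAAA occurred once each in those of Ccr1 and Notch4, against 61.3% of all windows. TGGGAA occurred at 2 places in the Cd200 window, against 25.6% of all windows. An NF-kB motif (3 G, any 2 bases, 3 T and 2 C) and the octamer ATTTGCAT were in none of the 5, and 1.6% and 1.7% of all windows hold them. A TATA box (TATAAA) was found in the Ephx1 window, against 13.6% of all windows. An E-box (CANNTG) was present in all 5, as in 72.3% of all windows. The GC content was 66.3% for Mcoln2, 54.3% for Ephx1, 45.0% for Cd200, 44.0% for Ccr1 and 58.3% for Notch4, with a median of 52.7% over all windows. No motif was common to the 5 windows beyond the E-box. These matches describe the reference sequence and are not binding data.

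The deposited values are linear intensities in scaled units without detection calls, and having only 2 arrays a group limits how precise each value can be. The median intensity per array lay between 32.7 and 37.7. Btk measured 874.1 and 749.8 in CBA, while Xid read 841.0 and 643.9 and Btk KO 276.1 and 173.6 on the brighter of its probe sets, so both Btk KO arrays lay below the other 4. The sources used here do not place its probes relative to the deletion. The Btk KO array of run 1 had a 3′ to 5′ ratio of 10.4 for the Gapdh controls, against at most 1.61 on the other arrays, and was hybridised on a day of its own. The differences of the 5 genes are therefore also given for run 2. B lineage transcripts were bright on all arrays: Cd79a of the B cell receptor complex ranged from 3066.3 to 6004.4.

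Mcoln2 was low in both lines by about the same amount. Its probe set measured 227.9 and 224.3 on the CBA arrays, 58.6 and 66.6 on the Xid arrays and 57.2 and 47.0 on the Btk KO arrays. The 2 wild type arrays were nearly equal and all 4 mutant arrays lay far below them. The CBA mean was 226 ± 2.55, the Xid mean 62.6 ± 5.66 (27.7% of wild type) and the Btk KO mean 52.1 ± 7.21 (23.0%), each ± SD with n = 2. On the log2 scale, after adding a pseudocount of 5.9, Xid differed from CBA by -1.76 ± 0.22 and Btk KO by -2.01 ± 0.22 (SE). In run 2 alone these differences were -1.67 and -2.12. Signal in a bulk sample falls both with fewer cells of a type and with less RNA per cell, and these cannot be told apart.

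Ephx1 was the lowest of the 5 against wild type over both lines together. It measured 142.4 and 230.2 in CBA, 12.9 and 41.5 in Xid and 8.8 and 14.6 in Btk KO. The 3 lowest of these values lie below 19.8, the mean intensity under which a probe set was set aside as dim, so little of the signal was left in Btk KO. Means were 186 ± 62.1, 27.2 ± 20.2 and 11.7 ± 4.10, or 14.6% of wild type in Xid and 6.28% in Btk KO. The log2 differences were -2.65 ± 0.48 in Xid and -3.43 ± 0.48 in Btk KO, and near the floor their size depends on the pseudocount. Run 2 gave -2.32 and -3.53. Of the 7453 probe sets in the fit, Ephx1 ranked 1st for the mean of both differences, as a description of the choice.

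Cd200 was lower by a smaller factor. The CBA arrays read 124.7 and 118.3, the Xid arrays 53.0 and 31.5 and the Btk KO arrays 63.4 and 53.3. The highest mutant value, 63.4, was 1.87 times below the lowest wild type value. The Xid mean of 42.2 ± 15.2 was 34.8% and the Btk KO mean of 58.4 ± 7.14 was 48.0% of the CBA mean of 122 ± 4.53. The differences were -1.44 ± 0.29 in Xid and -0.99 ± 0.29 in Btk KO, and -1.73 and -1.07 in run 2. Cd200 stood at place 49 of 7453 for the mean of both differences, the farthest down of the 5 genes.

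Ccr1 measured 100.5 and 99.8 in CBA, 21.1 and 30.9 in Xid and 31.7 and 45.8 in Btk KO. Wild type was again the tight group, and in each line the array of run 2 was the higher. The means of 26.0 ± 6.93 in Xid and 38.8 ± 9.97 in Btk KO were 26.0% and 38.7% of the CBA mean of 100.2 ± 0.495. The differences were -1.75 ± 0.30 and -1.27 ± 0.30, and -1.52 and -1.03 in run 2.

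For Notch4 the 2 probe sets differed greatly in brightness. The brighter measured 204.5 and 356.8 in CBA, 39.0 and 21.6 in Xid and 68.7 and 86.5 in Btk KO. Its means were 281 ± 108, 30.3 ± 12.3 and 77.6 ± 12.6, or 10.8% of wild type in Xid and 27.7% in Btk KO. The differences were -2.97 ± 0.35 and -1.73 ± 0.35, and -3.72 and -1.97 in run 2. The other measured 4.6 and 3.4 in CBA, 6.3 and 7.5 in Xid and 18.7 and 1.3 in Btk KO. It is dim on every array, with all values below 19.8, so it cannot show whether the transcript was lower in the mutants. Its only mutant value below both CBA values was 1.3, in Btk KO. The f in the array name of the brighter set marks probes that can also bind related sequences, so its signal is not shown to be the Notch4 transcript.

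**Figure D1:**
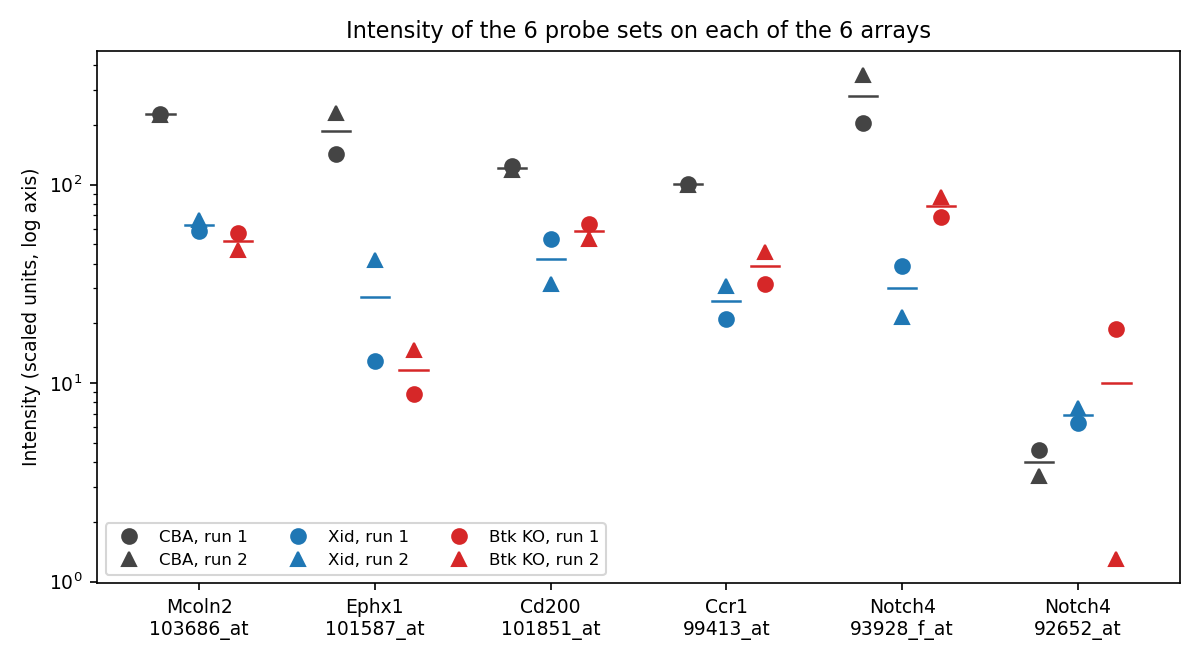
Intensity in scaled units (log axis) of each of the 6 probe sets on each array, circles for run 1, triangles for run 2 and short bars for the group mean of 2 arrays. In 5 probe sets all 4 mutant arrays lie below both CBA arrays, as with Mcoln2 at 47.0 to 66.6 against 224.3 and 227.9, while the dim Notch4 probe set stays below 19.8 throughout.

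In the 5 probe sets that passed the filter, all 4 mutant arrays lay below both CBA arrays, as they did in 7.31% of the 7453 probe sets. The genes were chosen for this, so nothing is read from that count, and a probe set bright in CBA alone could pass the filter. A wider gap, with the lower CBA array at least 2 times the highest mutant array, was found in 8 probe sets, or 0.107%. Ephx1 had a ratio of 3.43 and came first, followed by Mcoln2 at 3.37, and Notch4 at 2.36 and Ccr1 at 2.18 were also among the 8. The other 4, which apart from Hivep2 were named after their values were seen, were Lmo7, a LIM and calponin homology domain protein, at 2.56, the class I myosin Myo1e at 2.46, the scavenging chemokine receptor gene Ackr2 at 2.44 and the zinc finger factor Hivep2 at 2.13. Cd200, at 1.87, was not among them. The places of the 5 genes by this gap follow largely from the choice as well, so nothing is read from them.

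The comparison of Btk KO with Xid asks whether the knockout and the point mutation left the 5 transcripts at different levels. The selection did not use the difference between the lines directly, so it was tested. It did ask for low values in both lines, which can disfavour genes in which the lines differ much. A low number passing is therefore partly set by the choice. Mcoln2 and Ephx1 were at lower mean levels in Btk KO than in Xid, and Cd200, Ccr1 and Notch4 at higher ones. Ephx1 was bright enough for the fit only through CBA: its mean over the 4 mutant arrays was 4.51 on the log2 scale, under the filter at 4.68, so its difference between the lines is given as a value and left out of the counts. None of the other 4 passed (0 of 4, limma adjusted p over all 7453 probe sets, with and without the run as a block), where 0.0403% of all probe sets did without the block and 0.188% with it. At an unadjusted p under 0.05 there was 1 of 4 with and without the block, against 7.31% and 3.61% of all probe sets.

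Notch4 came nearest. On its brighter probe set both Btk KO arrays, at 68.7 and 86.5, lay above both Xid arrays, at 39.0 and 21.6, a log2 difference of 1.24 ± 0.35 (SE) with a 95% interval from 0.41 to 2.07. Its unadjusted p was 0.0091 and its adjusted p 0.97, or 0.0072 and 0.43 with the run block. Within the runs the difference was 0.73 and 1.75. For Ephx1, with 3 of its 4 mutant values below 19.8, the difference was -0.78 ± 0.48, at -0.35 and -1.21 within the runs. It was -1.45 without the Xid array of run 1 and -0.12 without that of run 2. Its Xid and Btk KO arrays overlapped, since 12.9 in Xid lies below 14.6 in Btk KO.

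For Mcoln2 the difference between the lines was -0.24 ± 0.22, with an interval from -0.76 to 0.28 (adjusted p = 1.0, and 0.82 with the block). Its 2 Btk KO arrays lay just below its 2 Xid arrays, at 57.2 against 58.6 for the nearest pair, with differences of -0.03 and -0.45 within the runs. The difference was -0.37 without the Btk KO array of run 1, -0.12 without that of run 2 and -0.16 without the Xid array of run 2. Cd200 differed by 0.45 ± 0.29 (interval from -0.23 to 1.12) and Ccr1 by 0.48 ± 0.30 (interval from -0.22 to 1.18), each with adjusted p = 1.0, and 0.75 with the block. For both genes the 2 Btk KO arrays lay above the 2 Xid arrays, and within the runs the differences were 0.23 and 0.66 for Cd200 and 0.48 and 0.49 for Ccr1. Single arrays moved both values: Cd200 differed by 0.78 without the Xid array of run 1 and by 0.12 without that of run 2, and Ccr1 by 0.26 without the Xid array of run 1 and by 0.25 without the Btk KO array of run 2. Groups without overlap in this comparison occurred in 26.5% of all probe sets. The intervals of Cd200 and Ccr1 allow a level in Btk KO up to 2.18-fold and 2.27-fold that of Xid, so the data do not show that the 2 lines are equal.

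**Figure D2:**
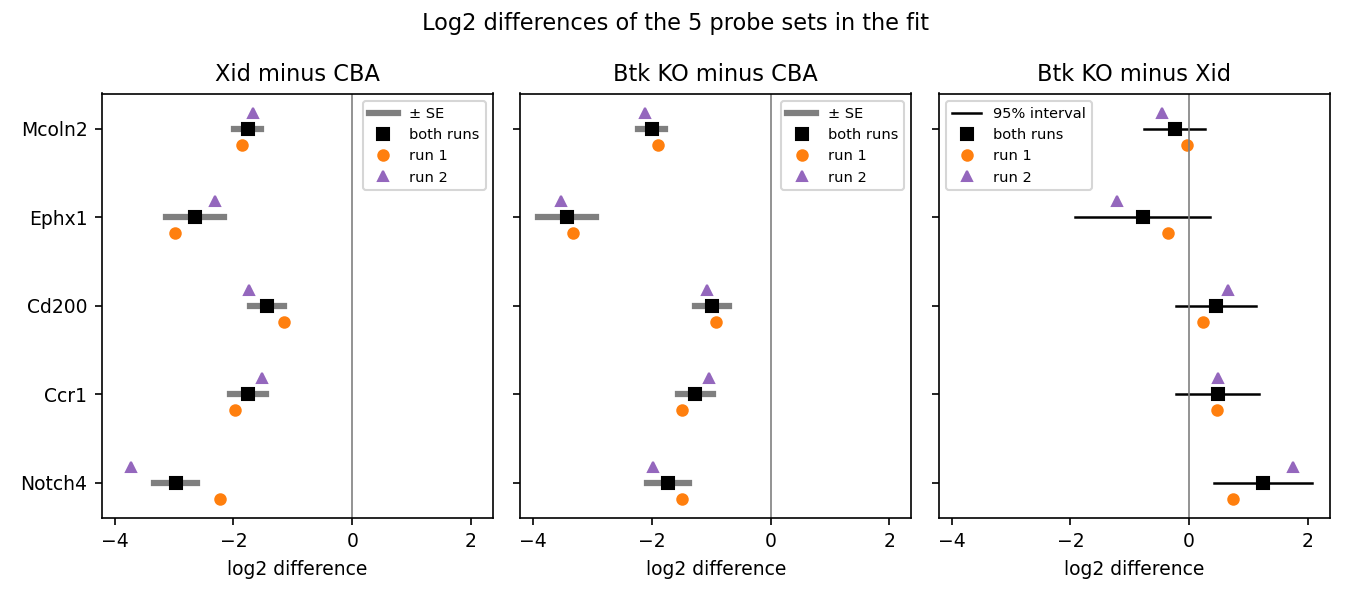
Log2 differences of the 5 probe sets in the fit for Xid minus CBA, Btk KO minus CBA and Btk KO minus Xid, with squares for both runs together, circles for run 1 and triangles for run 2. Bars are ± SE against CBA and 95% intervals between the lines. In the panel on the right the interval of Notch4 runs from 0.41 to 2.07, while those of Mcoln2, Cd200 and Ccr1 include 0. The bar of Ephx1 there is drawn as a value and not read as a test, since its mean over the 4 mutant arrays, 4.51 on the log2 scale, lies under the filter.

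Over the 6 arrays the log2 levels of the 5 probe sets had Pearson correlations between 0.69 (Cd200 with Ephx1) and 0.95 (Ephx1 with Mcoln2). All of these share the wild type arrays as the high points, so they follow largely from the choice of the genes. Ephx1 and Mcoln2 had the order CBA, Xid, Btk KO from high to low, and Cd200, Ccr1 and Notch4 the order CBA, Btk KO, Xid. Between Xid and Btk KO none of Mcoln2, Cd200, Ccr1 and Notch4 passed after adjustment, though the unadjusted 95% interval of Notch4 ran from 0.41 to 2.07.

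The genes whose levels were most like each member were found by Pearson correlation over the 6 arrays. For Mcoln2 these were the zinc finger factor gene Hivep2 (0.98), the kinase gene Akt2 (0.98) and the E protein gene Tcf4 (0.97). Hivep2 read 120.5 and 116.2 in CBA and 46.3 to 54.6 in the mutants, while Akt2 ranged from 218.8 to 241.3, so a like pattern did not mean a like size. For Ephx1 they were Prrc1 (0.99), the histone chaperone gene Daxx (0.99) and Cxcr5, the chemokine receptor of B cell follicles (0.98). Cxcr5 read 419.4 and 399.2 in CBA, 227.2 and 285.7 in Xid and 204.8 and 228.7 in Btk KO.

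For Cd200 the nearest patterns were those of Nsmce3, a subunit of the SMC5/6 complex (0.98), the inflammatory caspase gene Casp4 (0.98) and Notch4 (0.95). Casp4 read 98.9 and 83.9 in CBA, 57.3 and 34.7 in Xid and 56.7 and 48.8 in Btk KO. For Ccr1 they were the phosphatase gene Ptpn14 (0.98), the lymphocyte GTPase gene Gimap4 (0.97) and Afg3l1 (0.97). For Notch4 they were Nsmce3 (0.97), Eef1akmt1 (0.96) and the retinal reductase gene Dhrs3 (0.96). Apart from Hivep2 and Notch4, the differences of these genes from CBA lay between -0.94 and -0.10.

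Genes related to the 5 were examined to see whether the family or pathway of each was low as well. The lists hold 129 genes, of which 103 are on the array and 77 were bright enough to test. None passed against CBA in either line or between the lines without the run block (0 of 77 in each, limma), where 0.0671%, 0.174% and 0.0403% of all probe sets did. At an unadjusted p under 0.05 there were 6 in Xid, 17 in Btk KO and 8 between the lines, against 4.43%, 8.83% and 3.61% of all probe sets. With the block these were 10, 28 and 14, against 8.09%, 15.1% and 7.31%. With the run block 2 rose and 0 fell in Xid, where 0.362% and 0.121% of all probe sets did. In Btk KO 7 rose and 1 fell with it, against 1.41% and 0.792% of all probe sets. Between the lines 0 passed with the block too (limma, 14 at an unadjusted p under 0.05). With the block but without the Btk KO array of run 1, 4 of the 8 kept their call in Btk KO, where 1.25% of all probe sets passed. The median log2 difference of the 77 genes was 0.13 in Xid and 0.25 in Btk KO, against 0.01 over all probe sets in each.

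Among 18 genes of endolysosomal channels, transport and hydrolysis, related to Mcoln2, the median was 0.24 in Xid and 0.39 in Btk KO. The channels Mcoln1 and Mcoln3 have no probe set named here. Ctsd, the lysosomal protease cathepsin D, read 338.8 and 539.8 in CBA, 751.4 and 1036.5 in Xid and 1179.6 and 1544.1 in Btk KO. It rose with the run block in both lines, by 1.03 (adjusted p = 0.047, and 0.59 without the block) and by 1.64 (adjusted p = 0.0063, and 0.11 without it). Ctsb, cathepsin B, rose in Btk KO by 1.22 (adjusted p = 0.019 with the block, 0.23 without it and 0.10 with the block and without the Btk KO array of run 1). Hexa and the membrane protein gene Lamp1 differed by 0.66 and 0.59 in Btk KO (0.69 and 0.32 in run 2) and did not pass. Ctsd and Ctsb thus lay on the opposite side from Mcoln2 in the same samples. Which cells their signal came from was not tested.

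Of 16 genes of epoxide, glutathione and oxidative stress metabolism, 15 were above CBA in Xid and 14 in Btk KO, with medians of 0.15 and 0.31. Hmox1, which breaks down heme, read 750.1 and 978.4 in CBA, 1355.0 and 1866.4 in Xid and 2751.8 and 2939.7 in Btk KO. It rose in Btk KO with the run block (1.72, adjusted p = 0.0063, and 0.052 without it). The glutathione transferases Gstm5, Mgst1 and Mgst3 differed from CBA by 0.70, 0.92 and 0.93 in Btk KO without passing. In run 2 these differences were 0.755, 0.917 and 0.46. Ephx2, the soluble epoxide hydrolase and closest counterpart of Ephx1, was dim, at 5.7 to 10.9 on all arrays.

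For Cd200, 12 genes of its receptor's adaptors and of paired or costimulatory surface proteins had medians of -0.02 in Xid and 0.01 in Btk KO. Cd47, the surface protein read by SIRP alpha on phagocytes, measured 784.7 and 505.2 in CBA, 1754.6 and 1396.1 in Xid and 916.7 and 627.1 in Btk KO. It rose in Xid with the run block (1.31, adjusted p = 0.023, and 0.47 without it) and differed by 0.27 in Btk KO, and the difference between the lines, -1.04, did not pass (adjusted p = 0.97, and 0.10 with the block). Sirpa, which encodes that receptor, rose in Btk KO with the block (1.62, adjusted p = 0.0074, and 0.052 without it). The inhibitory B cell co-receptors Cd72 and Cd22 differed by -0.97 and -0.66 in Btk KO and did not pass in either fit (adjusted p = 0.051 and 0.083 with the block). The receptor gene Cd200r1 has no probe set named here.

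For Ccr1, 11 other chemokine receptors and ligands had medians of 0.17 in Xid and 0.42 in Btk KO. Ccr3, a receptor of eosinophils, had a mean of 85.8 ± 35.9 in Btk KO, against 26.9 ± 13.1 in CBA and 29.9 ± 6.93 in Xid (SD, n = 2 each). It rose in Btk KO with the run block (1.49, adjusted p = 0.040, and 0.30 without it). Ccr2, the monocyte receptor, rose by 1.14 (adjusted p = 0.029, and 0.71 without the block). The ligand gene Ccl5, named after its values were seen, rose by 1.39 (adjusted p = 0.0091, and 0.62 without the block). Cxcr5 fell by 0.90 in Btk KO with the block (adjusted p = 0.044, and 0.18 without it). With the block but without the Btk KO array of run 1, Ccl5 kept its call (0.024) and Ccr3 (0.13), Ccr2 (0.068) and Cxcr5 (0.13) lost it. Ccr6, a further B cell receptor, differed by -0.96 and the ligand gene Ccl3 by 1.36, neither past the threshold in either fit.

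For Notch4, 20 receptors, ligands, processing enzymes and targets of Notch signalling had medians of 0.10 in Xid and 0.10 in Btk KO. None of the 20 passed in either fit (0, limma, with 0 at an unadjusted p under 0.05 in Xid and 1 in Btk KO without the block, and 0 and 4 with it). Notch2, on its brighter probe set, measured 325.3 and 198.4 in CBA, 270.6 and 233.9 in Xid and 245.4 and 236.8 in Btk KO, differences of -0.01 and -0.07. Its dimmer probe set differed by -0.57 and -0.92, where 1 CBA array read 89.7 and the other 15.2, so the pair disagree. Notch1, on its brighter probe set, differed by 0.25 and 0.69 and Notch3 by -0.22 and 0.25. Hes1, a target of Notch receptors, differed by 0.45 and 0.64, and by 0.27 and 0.17 in run 2. Adam17, a sheddase of Notch and other proteins, and Fbxw7, which marks the Notch intracellular domain for degradation, differed by 0.81 and -0.63 in Btk KO. In run 2 they differed by 0.90 and -0.35.

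**Figure D3:**
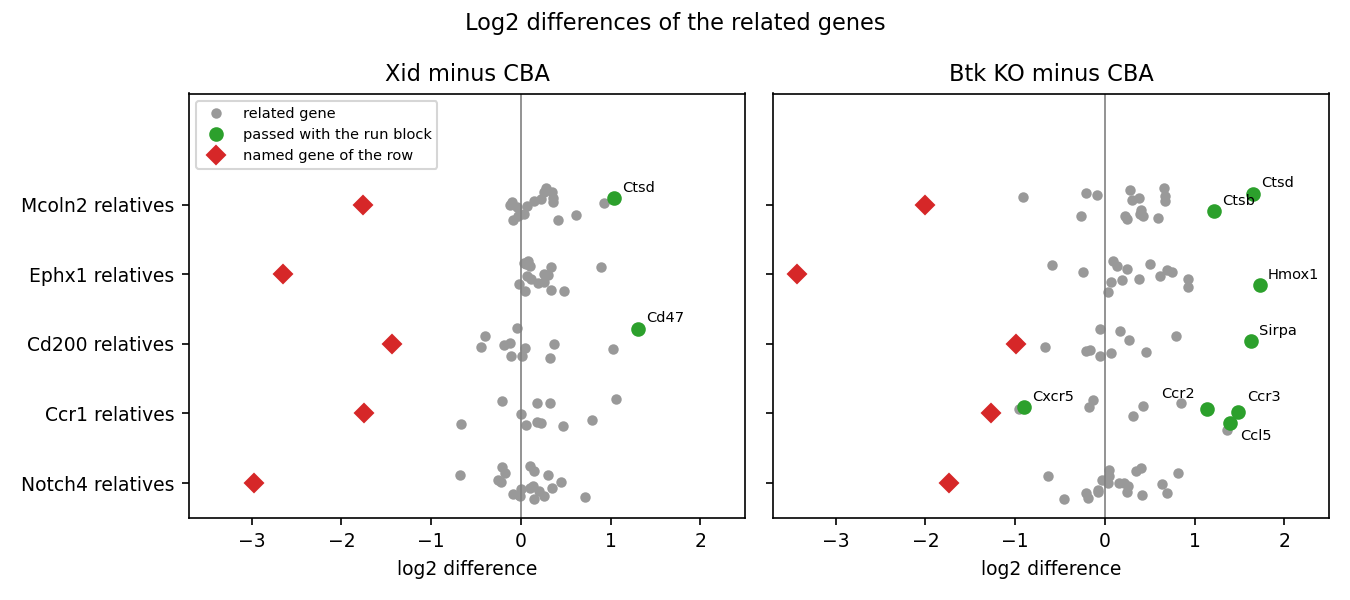
Log2 differences from CBA of the related genes in the fit, 1 row per list, with the gene that gives the row its name as a red diamond and genes past the threshold with the run block in green. The diamonds were chosen for being low. Among the related genes in Btk KO, Ctsd, Hmox1 and Sirpa lie at 1.62 to 1.72 and Cxcr5 at -0.90.

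Markers of other spleen cells moved in the same samples. For 12 macrophage and monocyte markers, all bright enough to test, the summed intensity was 1756.7 to 2768.1 in CBA, 4330.1 to 6725.6 in Xid and 6344.1 to 9340.5 in Btk KO. With the run block 6 of the 12 rose in Xid and 7 in Btk KO, where 0.362% and 1.41% of all probe sets did. Without it 0 and 3 rose (limma), against 0.0134% and 0.161%. The complement gene C1qc, the brightest by its mean over all arrays, read 291.7 and 656.1 in CBA, 1038.9 and 1441.6 in Xid and 1553.4 and 2040.0 in Btk KO. The adhesion gene Vcam1 came next, at 304.7 and 369.9, 770.5 and 1064.4, and 1765.9 and 1532.0. Ccr1, best known from myeloid cells, was chosen for being low, and how its level relates to this list was not tested.

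For 7 B cell markers the sums were 19136.0 to 19549.3 in CBA, 14663.1 to 20974.9 in Xid and 13156.0 to 14611.0 in Btk KO, with medians of -0.16 and -0.52, and 0 of 7 passed in either fit. The 5 marginal zone markers had medians of -0.25 and -0.46, and 0 passed in either fit. Among them Cd9, named after its values were seen, was lowest at -1.39 and -0.85, and Cd1d1 highest at -0.05 and 0.24. The 3 follicular markers had medians of -0.54 and -0.72. Of these 1, Cxcr5, was lower in Btk KO with the run block, where 0.792% of all probe sets were, and 0 passed without it. The summed level of 4 plasma cell markers was on the same side as the 5 genes in both lines, at 1219.0 to 1454.3 in CBA, 689.2 to 762.6 in Xid and 735.5 to 745.5 in Btk KO. The sum followed Jchain, the joining chain of secreted antibody, at 883.9 and 1165.6 in CBA, 535.0 and 366.4 in Xid and 503.4 and 400.9 in Btk KO. Xbp1, a factor of antibody secretion, differed by -0.14 and -0.11, and in run 2 it read 299.5 in Xid and 326.6 in Btk KO against 238.1 in CBA. Of the 4, Sdc1 and Prdm1 were dim, and 0 of the 2 tested passed in either fit. The 5 stromal and endothelial markers, of interest for Notch4, summed to 91.8 to 127.1 in CBA, 141.7 to 166.7 in Xid and 156.4 to 156.8 in Btk KO. Their 3 tested members had medians of 0.67 and 0.37 and none passed, and Cdh5 and Col3a1 were dim. The 7 T cell markers, of which Cd3g, Cd3d and Cd8a were dim, had medians of 0.18 and 0.42 over the 4 tested, and none passed. Neutrophil markers summed to 145.1 to 194.4 in CBA, 197.2 to 217.9 in Xid and 831.8 to 1597.7 in Btk KO, and NK markers to 251.4 to 324.4, 370.3 to 570.4 and 588.8 to 1210.9. In Btk KO 4 of 5 tested neutrophil and 3 of 6 NK markers rose with the run block, where 1.41% of all probe sets did. Without it 2 and 0 rose (limma), against 0.161%. In Xid 0 of either list rose in either fit, against 0.362% of all probe sets with the block and 0.0134% without it. Erythroid markers summed to 3980.4 to 5516.5, 5021.0 to 6625.4 and 7018.7 to 14228.6. No marker was at 0 on all arrays. The part of these cell types in the levels of the 5 genes, and in those of the related genes, was not tested.

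The genes beside each member on its chromosome were compared with it, to see whether a low level ran along the chromosome. The order of genes came from GRCm38.p6, and up to 5 tested genes were taken on each side. Mcoln2 on chromosome 3 lies between Bcl10, a signalling adaptor of the B cell receptor pathway, at -0.07 in Xid and -0.23 in Btk KO, and Ssx2ip, at 0.51 and 0.80. Its 10 neighbours lay between -0.25 and 0.64 in Xid and between -0.31 and 0.80 in Btk KO. Ephx1 on chromosome 1 lies between Lefty1 (0.27 and 0.30) and Wdr26 (0.19 and 0.25), and its 10 neighbours lay between -0.33 and 0.47 in both lines. No neighbour of either gene passed in either fit (0 of 10 each, limma).

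Cd200 on chromosome 16 lies between Spice1 (0.51 and 0.44) and the gene model Gm4802 (0.63 and 0.49). Among its 10 neighbours Cd47, 2 places away, lay on the opposite side at 1.31 in Xid, and Zbtb20, 3 places away and named after its values were seen, on the same side at -1.06 and -1.21 without passing (adjusted p = 0.28 and 0.093 with the block). Ccr1 on chromosome 9 lies beside Xcr1 (0.53 and 0.23) and Ccr3 (0.17 and 1.49), in the chemokine receptor cluster near the end of the chromosome, where 7 neighbours could be measured. None of these 7 was below -0.35 in either line. Notch4 on chromosome 17 lies between H2-Ea (-0.38 and -1.04) and Gpsm3 (-0.02 and -0.09), within the major histocompatibility complex. None of its 10 neighbours passed (0, limma, in either fit), and they lay between -0.38 and 0.58 in Xid and between -1.04 and 1.08 in Btk KO. H2-Ea was dimmest on the Btk KO array of run 1 (11.6), and in run 2 it read 71.5 against 115.0 in CBA.

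**Figure D4:**
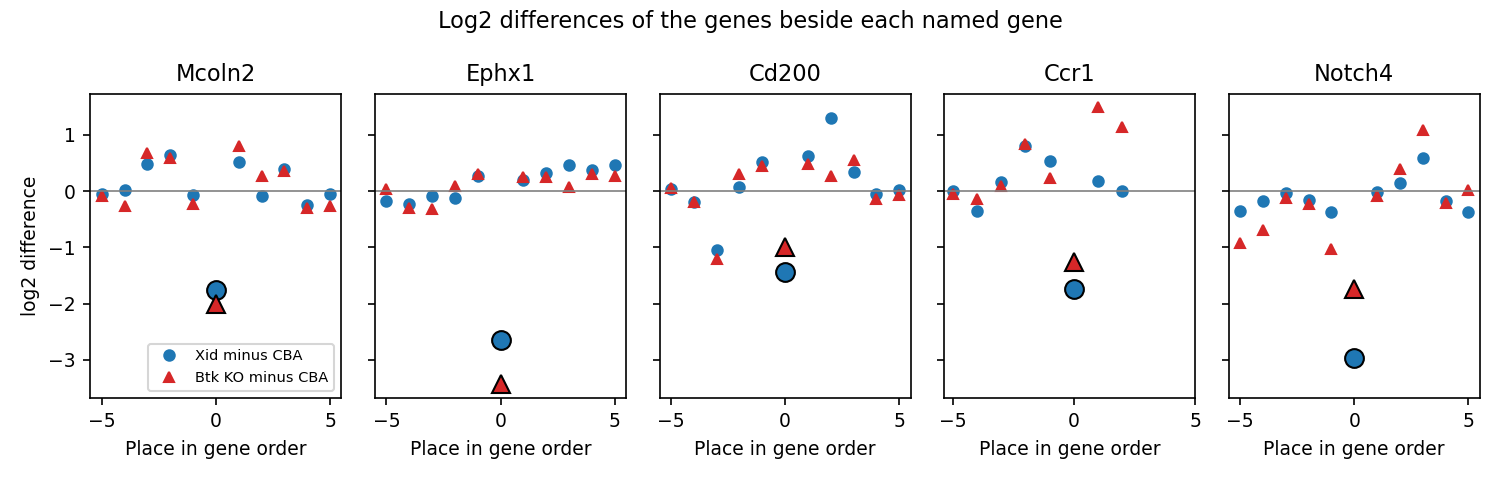
Log2 differences from CBA of the tested genes beside each of the 5 genes, by place in gene order (0 is the gene itself, drawn large with a black edge), circles for Xid and triangles for Btk KO. The 5 genes were chosen for being low, and their neighbours spread on both sides of 0, from Zbtb20 at -1.21 to Ccr3 at 1.49 in Btk KO.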

How the data were processed

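The authors deposited 1 linear intensity per probe set and array for 6 arrays. Each array had a 2% trimmed mean of 100.06, so scaling had been done before deposit. How probes were summarised is not given in the sources used here. Chip lot and hybridisation day came from the scanner files, per the file headers. Of 12422 non-control probe sets, 10833 have 1 gene symbol, 396 several and 1193 none. Values were taken to log2 after adding 5.9, the 20th percentile of all intensities. Probe sets with a mean log2 value below the 40th percentile (an intensity of about 19.8) were left out, which kept 7453.

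All 3 groups were fitted in 1 model with limma 3.58.1 in R 4.3.3 (lmFit, eBayes with an intensity trend, 3 residual degrees of freedom), two-sided, with Benjamini-Hochberg adjustment over the 7453 probe sets at 0.05. The script was tested on simulated data. The replicate numbers mark runs: the design label describes a later set of 3 chips with new mice, each run had 1 chip lot, and deviations from group means correlated within runs at 0.31 to 0.44. Run 1 was not 1 hybridisation day, since its Btk KO array was hybridised on a different day from its CBA and Xid arrays. Values from the fit with the run block stand beside those without it for the tests between the lines and for the related genes.

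The 5 genes, the related lists and the markers were chosen with earlier results of these data known. The text names Btk, the 5 genes with the 3 most correlated genes each, up to 4 related genes per list by smallest p, the closest paralogs, the 2 brightest markers of a list and immediate neighbours. Promoter sequences are from RefSeq, GRCm38.p6, and all 5 genes matched. Alternatives were normalization, pseudocount, filter, trend, samples in the fit and each array left out. Figures used matplotlib 3.10.9.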

Additional observations from a re-analysis of the deposited data

How the results depend on the processing

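With 2 arrays a group, the counts of calls depended on the model. Probe sets past the threshold numbered 5 in Xid minus CBA, 13 in Btk KO minus CBA and 3 in Btk KO minus Xid. With the run as a replicate block they numbered 36, 164 and 14, and with the block and without the Btk KO array of run 1, an alternative chosen after seeing the data, 78, 93 and 12. A larger pseudocount gave 8 in Xid and 5 between the lines. Fitting the 2 groups compared alone gave 9 in Xid, 0 in Btk KO and 0 between the lines (limma, with 567 and 212 at an unadjusted p under 0.05 in Btk KO and between the lines). In Btk KO quantile normalization, median centring and no filter gave 8 each, a stricter filter 29 and no intensity trend 0 (limma, 654 at an unadjusted p under 0.05). Leaving out each array in turn gave 0 to 9 in Xid, 0 to 145 in Btk KO and 0 to 29 between the lines, both 145 and 29 without the Btk KO array of run 2. Without either CBA array, or without the Xid array of run 1, no comparison kept a call (0, limma, with 160 to 573 at an unadjusted p under 0.05), and without the Xid array of run 2 the counts were 1, 0 and 1. Related genes past the threshold numbered 0 in each comparison. With the replicate block they numbered 2 in Xid and 8 in Btk KO, with the block and without the Btk KO array of run 1 3 and 4, with the stricter filter 2 in Btk KO, and without single arrays 0 to 2 there. The causes were not tested. The 5 genes kept their direction in every alternative. Against CBA this follows largely from the choice of the genes, so nothing is read from it. Between the lines the arrays of Mcoln2, Cd200, Ccr1 and Notch4 did not overlap. Leaving out single arrays therefore could not reverse their direction, and nothing is read from that either. Where no array was left out, none of Mcoln2, Cd200, Ccr1 and Notch4 passed between the lines. Leaving out single arrays gave differences between the lines of 0.12 to 0.78 for Cd200, 0.25 to 0.71 for Ccr1 and -1.45 to -0.12 for Ephx1. For Mcoln2 they were -0.37 to -0.12 and for Notch4 0.89 to 1.59. Larger pseudocounts shrank the differences from CBA, for Ephx1 in Btk KO from -3.43 to -2.64.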
